A study of Mus musculus with 6 samples.

Results

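The SR protein and hnRNP genes are the mRNA-level inventory of the general splicing regulators, and 33 of the 23038 genes in the tables belong to them. Members were taken by symbol, as every gene named Srsf, Tra2a, Tra2b, Hnrnp or Hnrp. The rule uses no measured value, though it was set with earlier results of these data known. 13 are SR or Tra2 genes and 20 are hnRNP genes. All 33 passed the filter on low counts that left 12665 genes for testing.

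SR proteins carry RNA recognition motifs and a tail rich in arginine and serine. They bind exons and help the spliceosome to recognise the flanking splice sites, and their activity depends on phosphorylation of that tail. The hnRNP proteins coat nascent transcripts through RRM, KH or RGG domains, and many of them oppose SR proteins at splice sites. Both families are found in nearly every cell type, neurons included, and several members control their own transcript through exons or introns that direct it to nonsense-mediated decay (NMD).

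The RNA came from NSC-34, a hybrid mouse line in which neuroblastoma cells were joined with motor neurons of the spinal cord. 3 libraries came from cells given control siRNA (siNC) and 3 from cells given siRNA against Qk (siQk), the gene of the Quaking RNA-binding proteins, with 3 different siRNAs used in the siQk arm. The sources do not state which siQk library received which siRNA, so spread between siQk libraries cannot be told apart from differences between siRNAs. Both groups were the same line in the same serum-containing medium. The comparison asks whether the levels of the general splicing regulators move when Quaking is depleted.

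Qk was at 9.67, 8.18 and 14.9 RPKM (reads per kilobase of exon, scaled to the size of the library) in siNC and at 1.39, 1.71 and 1.10 RPKM in siQk. The groups lay apart, and 12.8% of the siNC mean was left. Its log2 fold change of siQk over siNC was -2.99 (SE 0.34), with an adjusted p of 0.0136 by edgeR's quasi-likelihood test. Library totals ran from 43000503 to 53565950 counts. By the spread of counts over all genes, siNC replicate 3 and siQk replicate 2 lay farthest from the other library pair of their own group. Libraries did not sort by group on this measure. Each siNC library lay nearer to siQk replicates 1 and 3 (chi-square per gene 65.4 to 111) than to any other siNC library (117 to 170). The closest pair was siQk replicates 1 and 3, at 24.4, and siQk replicate 2 lay 165 to 205 from the siNC libraries. The line lacked several motor neuron markers, with Chat at 0.0297 to 0.141 RPKM and Mnx1 at 0 to 0.0944 RPKM, and it carried Tubb3 at 142 to 349 RPKM and Isl1 at 4.75 to 9.63 RPKM. No astrocyte or microglia marker of the lists used passed the filter.

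No SR, Tra2 or hnRNP gene passed the test for a change in level after Qk knockdown. 0 of the 33 members were called at p under 0.01 and adjusted p under 0.1, where 0.00790% of all genes tested were called, which is Qk alone. 0 of the 33 had an unadjusted p under 0.05 by edgeR, against 3.00% of all genes tested, and the edgeR exact test and DESeq2, which called 5 and 19 of all genes tested, gave 0 members on both counts too. The adjusted p of every member was 0.9998. By fitted log2 fold change, 20 members (60.6%) were higher in siQk and 13 lower, and 50.6% of all genes tested were higher. The median log2 fold change was -0.01 over the SR and Tra2 genes, 0.07 over the hnRNP genes and 0.00 over all genes tested.

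The 95% intervals give the size of change that the spread of each gene alone leaves room for, whereas edgeR's test pools spread over genes. Intervals of the log2 fold change, built from the spread between libraries with 3 per group, lay within a 2-fold change either way for 32 of the 33 members, and for 68.6% of all genes tested. They lay within a 1.5-fold change for 24 members, and those of the others, Hnrnpa0 (-0.94 to 0.84) and Hnrpdl (-0.11 to 0.85) among them, reached past it. From the estimate to the end of its interval was 0.16 to 0.89, with a median of 0.39, on the log2 scale. Srsf12 was the member whose interval passed the 2-fold limit, on the lower side at -1.01. The median coefficient of variation over the 6 libraries was 10.5% for the members and 18.1% for all genes tested, and 32 of the 33 members lay above the median siNC level. It was 9.75% for the list of other hnRNP proteins, 10.9% for SR-related coactivators and exon junction proteins, 13.1% for snRNP proteins and 16.0% for the kinases, phosphatases and importer of SR proteins.

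**Figure D1:**
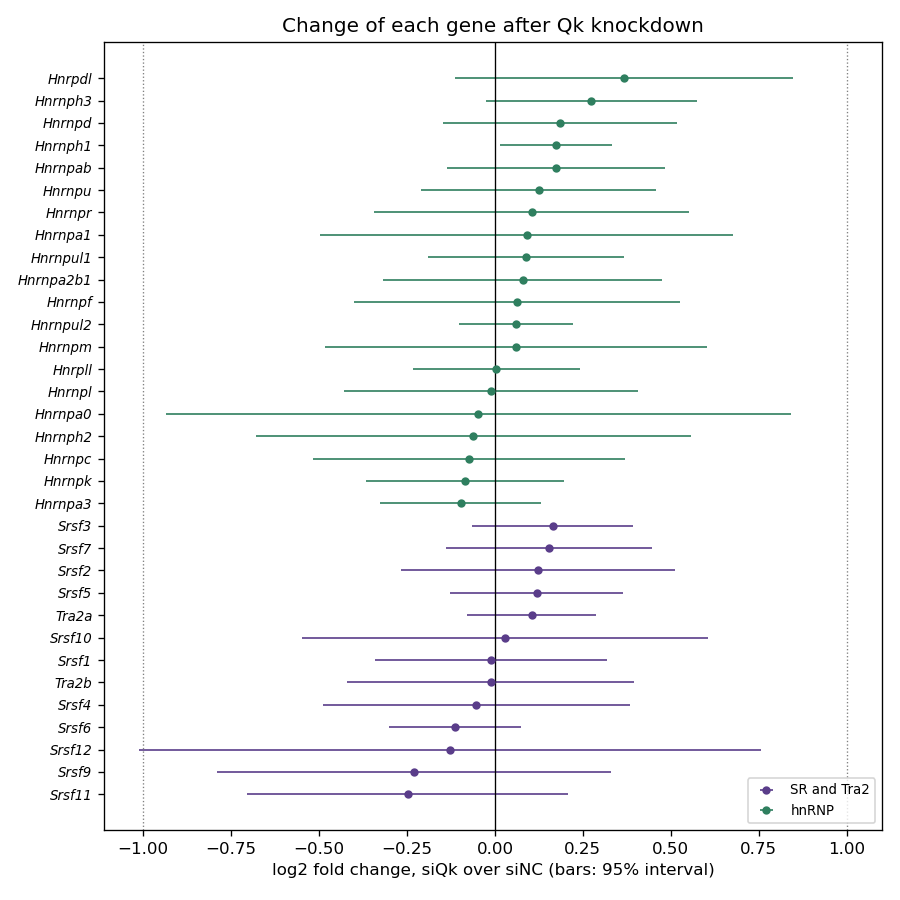
Log2 fold change of siQk over siNC (x axis) for each of the 33 genes (y axis, ordered within class), where points are edgeR estimates and bars are 95% intervals from the spread between 3 libraries per group. The dotted lines mark a 2-fold change, and 32 of 33 bars stay between them, while 1 bar, that of Hnrnph1, leaves out 0, as do the intervals of 3.39% of all genes tested.

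Among the SR and Tra2 genes, levels spanned from Srsf2 at the top to Srsf12 at the bottom. Srsf2, which binds exonic enhancers and stays in the nucleus, was at 173, 137 and 124 RPKM in siNC and 158, 153 and 168 RPKM in siQk, and held 17.3% of the summed level of the class in siNC. The groups overlapped, and the log2 fold change was 0.12 (SE 0.14, unadjusted p = 0.464 by edgeR). Srsf9 and Srsf5 followed at 96.7 ± 14.8 and 93.8 ± 3.14 RPKM (SD, n = 3) in siNC, and their siNC ranges overlapped. Srsf12 was at 0.688, 0.618 and 0.768 RPKM in siNC and 0.888, 0.432 and 0.627 RPKM in siQk, from 68 to 119 counts per library, with a log2 fold change of -0.13 (SE 0.32). The next lowest, Srsf10, was at 25.3 ± 5.47 RPKM (SD, n = 3) in siNC, with no overlap between the pair. Of the 12 pairs of neighbours in the order of siNC levels, 7 had ranges that overlapped, so much of the middle of the order was not resolved.

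Srsf3 and Tra2a were the SR and Tra2 genes whose siNC and siQk values did not overlap, both higher in siQk. Srsf3, the smallest SR protein, also binds mRNA for nuclear export (chr17:29032628-29043373, plus strand, GRCm38). It was at 53.6, 52.3 and 50.3 RPKM in siNC and 59.8, 53.8 and 64.4 RPKM in siQk. Its lowest siQk library, replicate 2, lay just above its highest siNC library, and the log2 fold change was 0.16 (SE 0.08, unadjusted p = 0.287 by edgeR).

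Tra2a, one of the pair of Transformer 2 proteins that bind exons rich in GAA repeats, lies at chr6:49243924-49264033 on the minus strand. It was at 75.3, 74.8 and 75.4 RPKM in siNC and 79.5, 78.7 and 88.5 RPKM in siQk. The siNC libraries were nearly level and siQk replicate 3 was the highest, for a log2 fold change of 0.10 (SE 0.07, unadjusted p = 0.479 by edgeR). The siNC and siQk means of its paralog Tra2b were 59.5 ± 5.67 and 60.2 ± 6.80 RPKM (SD, n = 3).

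The SR genes with the lowest fitted values were Srsf11 and Srsf9. Srsf11, an SR-related protein that promotes neuronal microexons, was at 49.2, 50.4 and 59.3 RPKM in siNC and 49.8, 38.4 and 48.3 RPKM in siQk (chr3:158010473-158036639, minus strand). siQk replicate 2 was low and replicate 1 was level with siNC, and the log2 fold change was -0.25 (SE 0.16, unadjusted p = 0.171 by edgeR). Srsf9, a relative of Srsf1 with a short tail, was at 93.4, 83.8 and 113 RPKM in siNC and 70.01, 96.6 and 85.9 RPKM in siQk. Here siQk replicate 1 was the low library and the groups overlapped, with a log2 fold change of -0.23 (SE 0.20, unadjusted p = 0.250 by edgeR).

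The remaining SR genes, Srsf1, Srsf4, Srsf5, Srsf6, Srsf7 and Srsf10 and with them Tra2b, had overlapping groups and log2 fold changes from -0.11 (Srsf6) to 0.15 (Srsf7). Srsf1, the founding member of the family, had siNC and siQk means of 64.8 ± 5.58 and 65.6 ± 4.85 RPKM (SD, n = 3), and its interval of -0.34 to 0.32 (log2) is among those within a 1.5-fold change.

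**Figure D2:**
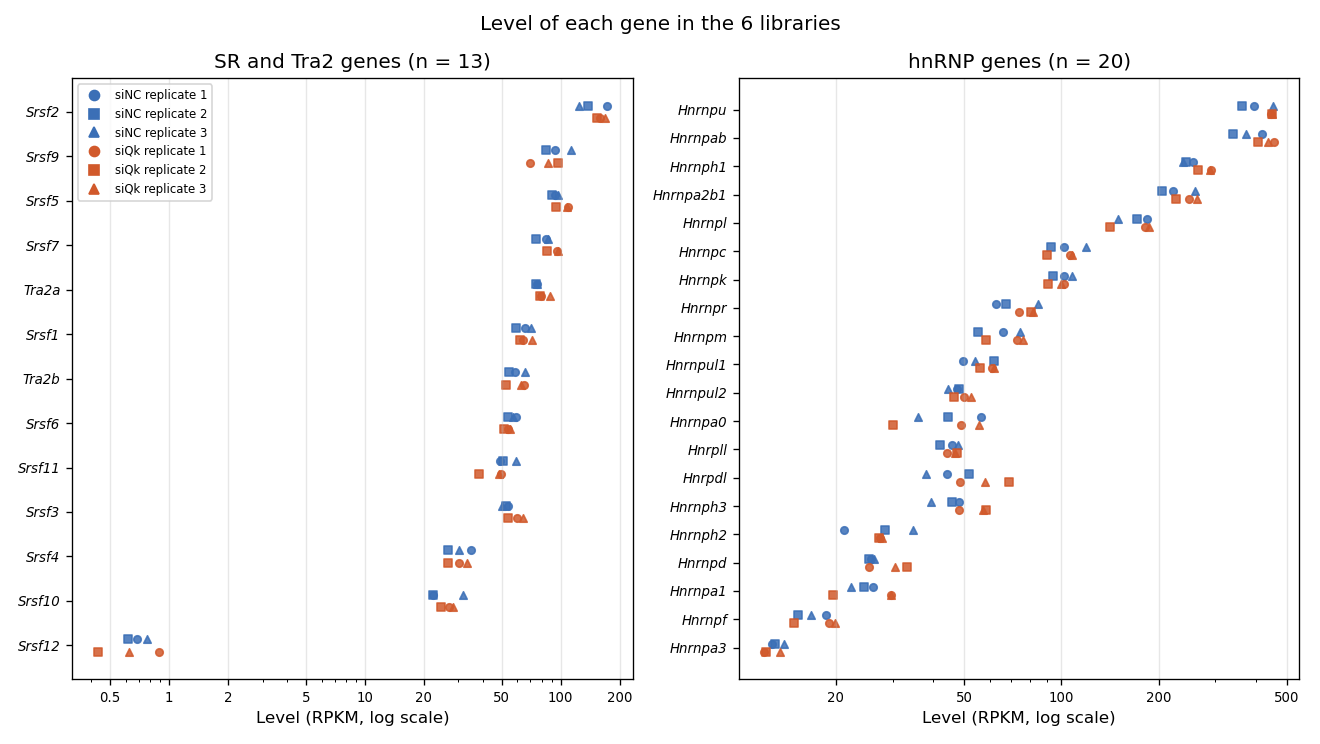
RPKM on a log scale (x axis) in each of the 6 libraries for the 13 SR and Tra2 genes (left) and the 20 hnRNP genes (right), in the order of their siNC means, with siNC in blue, siQk in orange and replicates told apart by marker shape. Srsf12 stands far to the left at 0.432 to 0.888 RPKM, while Hnrnpu and Hnrnpab lie at the top right, and siNC and siQk points lie intermixed for most genes.

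The hnRNP genes were the more abundant class, with a summed level 2.58 times that of the SR and Tra2 genes in siNC. Hnrnpu, Hnrnpab, Hnrnph1 and Hnrnpa2b1 held 58.2% of it, and Hnrnpu and Hnrnpab each lay above the 99th percentile of all genes tested. 11 of the 19 neighbours in the order overlapped in siNC, the pair at the top among them.

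Hnrnpu, a large scaffold protein that binds RNA and chromatin (chr1:178321108-178337797, minus strand), was at 396, 362 and 452 RPKM in siNC and 446, 450 and 449 RPKM in siQk. The siQk libraries were nearly level and siNC replicate 3 was the highest of all, so the groups overlapped at a log2 fold change of 0.12 (SE 0.12, unadjusted p = 0.439 by edgeR). Hnrnpul1 and Hnrnpul2, its relatives, had log2 fold changes of 0.09 (SE 0.10) and 0.06 (SE 0.06).

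In the hnRNP A/B group, Hnrnpab, which binds trafficking elements of neuronal mRNAs, was at 418, 339 and 374 RPKM in siNC and 456, 406 and 437 RPKM in siQk. siQk replicate 2 lay below siNC replicate 1, and the log2 fold change was 0.17 (SE 0.11, unadjusted p = 0.279 by edgeR). Hnrnpa2b1 averaged 228 ± 27.3 and 246 ± 18.6 RPKM (SD, n = 3) in siNC and siQk. Hnrnpa1, the classical antagonist of Srsf1 at alternative splice sites, was listed at 24.3 ± 1.88 and 26.3 ± 5.84 RPKM, and Hnrnpa3, the lowest hnRNP gene, at 12.7, 13.0 and 13.8 RPKM in siNC and 12.02, 12.1 and 13.5 RPKM in siQk. The log2 fold change of Hnrnpa3 was -0.10 (SE 0.08, unadjusted p = 0.547 by edgeR). The levels of these paralogs, and of other members, carry a limit. By sequence match of GENCODE transcripts, 10 other genes, all annotated as pseudogenes, share at least 150 bases at 95% identity or more with Hnrnpa1. For Hnrnpa3, 28 other genes do so. Reads from such stretches may have been placed elsewhere or dropped. The stretches covered 58.5% of the longest protein-coding transcript of Hnrnpa1 and 28.9% of that of Hnrnpa3. They covered 69.3% for Hnrnpf, 64.1% for Srsf4, 51.7% for Srsf5 and 49.5% for Srsf3. 18 of the 33 members share such a stretch with another gene. For Hnrnpab, Hnrnpm, Hnrnpul2 and Srsf2 among them, the match is only to neighbours whose exons overlap theirs.

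Hnrnph1 and Hnrnph3, which bind runs of guanines, were the hnRNP genes with non-overlapping groups. Hnrnph1 (chr11:50376990-50386528, plus strand) was at 256, 243 and 238 RPKM in siNC and 292, 265 and 290 RPKM in siQk. Each siQk library lay above each siNC library, for a log2 fold change of 0.17 (SE 0.06, unadjusted p = 0.229 by edgeR). Its own interval was 0.02 to 0.33 (log2). An interval that left out 0 was found for this 1 of the 33 members and for 3.39% of all genes tested, so the count is no more than the background. The interval uses the spread of Hnrnph1 alone, whereas edgeR pools the spread of genes of like abundance. Hnrnph3 (chr10:63014664-63024217, minus strand) was at 48.0, 45.7 and 39.5 RPKM in siNC and 48.1, 58.5 and 57.1 RPKM in siQk. siQk replicate 1 was almost level with siNC replicate 1, and the log2 fold change was 0.27 (SE 0.11, unadjusted p = 0.106 by edgeR). The other two of the group, Hnrnph2 at 28.1 ± 6.73 and 27.5 ± 0.363 RPKM and Hnrnpf at 16.9 ± 1.72 and 18.0 ± 2.70 RPKM (SD, n = 3, siNC then siQk), had overlapping groups.

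The 4 members with non-overlapping groups, Srsf3, Tra2a, Hnrnph1 and Hnrnph3, made up 12.1% of the members. 8.84% of all genes tested had non-overlapping groups in either direction and 5.35% with siQk above siNC, 3.49% with siQk below, and the exact permutation p of 0.1 for each is the smallest that 3 against 3 allows. After RPKM values were rescaled by TMM factors, an alternative chosen after seeing the data, Hnrnph1 alone of the 33 kept non-overlapping groups, beside 8.51% of all genes.

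Hnrpdl had the largest fitted change and the smallest p of all members. It encodes a relative of AUF1 that binds AU-rich elements and whose own transcript is subject to NMD (chr5:100033577-100039664, minus strand). It was at 44.2, 51.7 and 38.1 RPKM in siNC and 48.6, 68.8 and 57.9 RPKM in siQk. siQk replicates 2 and 3 lay above every siNC library and siQk replicate 1 did not, for a log2 fold change of 0.37 (SE 0.17, unadjusted p = 0.0623 by edgeR). Hnrnpd, which encodes AUF1, averaged 25.7 ± 0.463 RPKM (SD, n = 3) in siNC and 29.8 ± 3.998 RPKM in siQk, and its log2 fold change was 0.18 (SE 0.12).

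Hnrnpc, Hnrnpk and the hnRNP L genes had fitted values near 0 and overlapping groups. Hnrnpc, which binds uridine tracts and keeps cryptic exons out of mRNA, was at 102, 93.1 and 119 RPKM in siNC and 107, 89.9 and 108 RPKM in siQk (log2 fold change -0.07, SE 0.16). Hnrnpk, a KH-domain protein like Quaking, was at 102, 94.2 and 108 RPKM in siNC and 102, 90.6 and 99.5 RPKM in siQk (log2 fold change -0.09, SE 0.10). Hnrnpl, which binds CA repeats, was at 184, 172 and 150 RPKM in siNC and 181, 141 and 187 RPKM in siQk (log2 fold change -0.01, SE 0.15), and its paralog Hnrpll had a log2 fold change of 0.00 (SE 0.09).

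Hnrnpm was at 66.1, 55.1 and 74.2 RPKM in siNC and 73.1, 58.5 and 76.3 RPKM in siQk (log2 fold change 0.06, SE 0.20). Hnrnpr, which is abundant in motor axons and binds beta-actin mRNA there, was at 62.9, 67.3 and 84.9 RPKM in siNC and 74.0, 80.2 and 81.9 RPKM in siQk (log2 fold change 0.10, SE 0.16). The groups of both genes overlapped. Hnrnpa0 had the highest coefficient of variation over the 6 libraries, 23.1%, and ran from 30.2 RPKM in siQk replicate 2 to 56.2 RPKM in siNC replicate 1, a spread that ran within both groups.

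As classes, the SR and Tra2 genes summed to 834 ± 46.8 and 863 ± 46.6 RPKM (SD, n = 3) in siNC and siQk, and the hnRNP genes to 2156 ± 108 and 2354 ± 116 RPKM. The means of the sums differed by 3.47% and 9.17%, which became 0.228% and 6.12% without siNC replicate 2, 6.24% and 12.2% without siQk replicate 2, and 1.59% and 7.17% after rescaling by TMM factors. In both classes the siQk range overlapped the siNC range, which for the hnRNP genes reached 2233 RPKM against a lowest siQk sum of 2223 RPKM. All members together held 0.818% to 0.976% of a library's counts.

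The lowest and highest values of many members fell in the same libraries. siNC replicate 2 and siQk replicate 2 were each the lowest of the 6 libraries for 5 of the 13 SR and Tra2 genes and for 6 of the 20 hnRNP genes. siNC replicate 3 was the highest for 4 and 7 of them, and siQk replicate 3 for 4 and 6. With siQk replicate 2 left out, 26 of the 33 members were higher in siQk, and with siNC replicate 3 left out 24 were. With siNC replicate 2 or siQk replicate 3 left out 15 were, so the direction of the balance rests on single libraries.

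**Figure D3:**
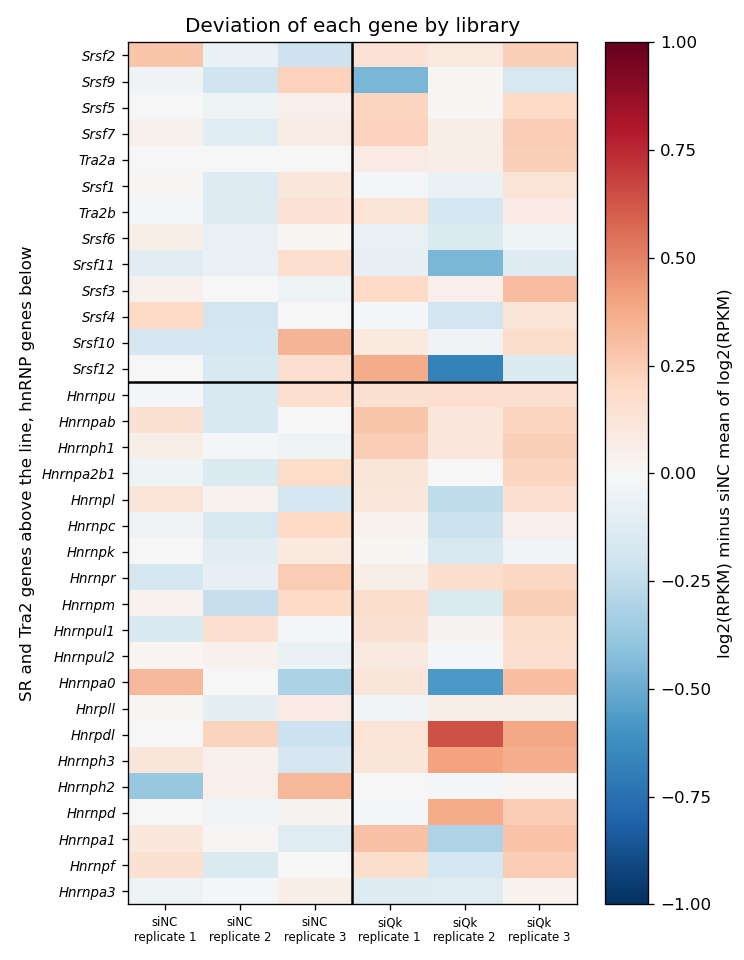
Deviation of each gene from its siNC mean of log2(RPKM) in each library (columns) as colour from blue (lower) to red (higher), with the SR and Tra2 genes above the horizontal line and the hnRNP genes below. Columns differ within a group as much as between groups, with siQk replicate 2 holding the darkest cells, high for Hnrpdl and low for Srsf12 and Hnrnpa0.

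**Figure D4:**
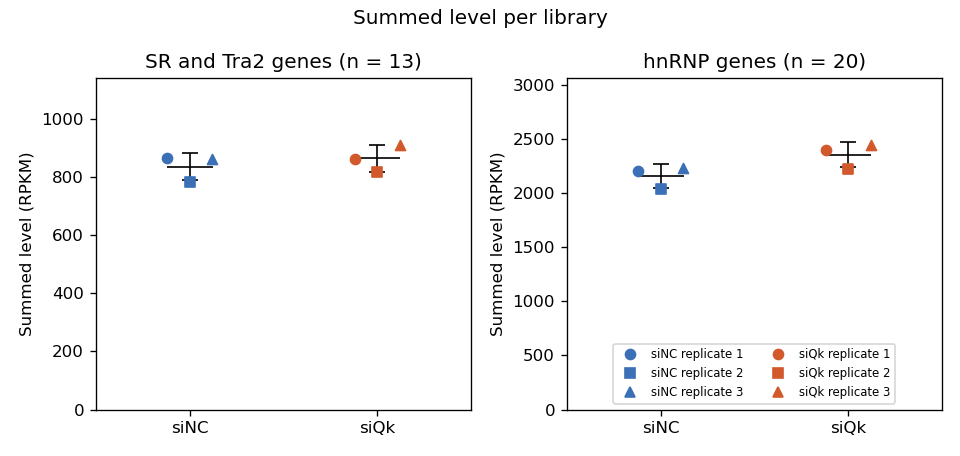
Summed RPKM (y axis, from 0) of the SR and Tra2 genes (left) and the hnRNP genes (right) in each library, with the mean and SD of the 3 libraries of each group in black. Sums ran from 780 to 910 RPKM for SR and Tra2 genes and from 2032 to 2446 RPKM for hnRNP genes, and the groups overlapped in both.

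Quaking binds RNA at a core of ACTAAC or ACTAAT (U in RNA) with a second, shorter site nearby, TAAC or TAAT. The longest GENCODE protein-coding transcript of each member was therefore searched on its own strand for a core followed after 1 to 20 bases by the shorter site. 4 of the 33 members (12.1%) held this bipartite motif in the 3′ UTR, Srsf1, Hnrnpr, Hnrnpu and Hnrnpa1, against 8.5% of the 12076 genes tested that had a transcript. At least 1 core in the 3′ UTR was found in 48.5% of members and 33.1% of those genes. The median 3′ UTR length was 1311 bases for members and 1148 bases for those genes, and the shares were not adjusted for length. The bipartite 3′ UTR sites of the 4 members are shown 5′ to 3′ because the knockdown targets the transcript of the protein that recognises such letters. Core and shorter site are in capitals, from the GENCODE transcripts of GRCm38.
Srsf1, chr11:88050317-88050340, plus strand: ACTAATgtgggaagaatggcTAAT
Hnrnpr, chr4:136344424-136344436, plus strand: ACTAATgttTAAT
Hnrnpu, chr1:178326920-178326944, minus strand: ACTAATgtctatagactatttTAAT
Hnrnpu, chr1:178326770-178326797, minus strand: ACTAATttcttttttacataaatgTAAT
Hnrnpa1, chr15:103244429-103244442, plus strand: ACTAATtgtaTAAC
Each of the 5 uses the ACTAAT form of the core, and the gap to the shorter site runs from 3 bases in Hnrnpr to 18 in Hnrnpu. Among annotated transcripts with a coding sequence, the Hnrnpr site is exonic in 1 of 8, both Hnrnpu sites in 1 of 4, the Srsf1 site in 3 of 5 and the Hnrnpa1 site in 4 of 5. The exon length used for RPKM was 3733 bases for Hnrnpr and 2684 bases for Hnrnpu, shorter than the searched transcripts of 21452 and 7640 bases, so these sites may lie outside the counted exons.

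The log2 fold changes of the members with these sites lay within the range of the others. 3 of the 4 had positive log2 fold changes, with a median of 0.10 and a range of -0.01 (Srsf1) to 0.12 (Hnrnpu), and 17 of the 29 others did, with a median of 0.06. Over all genes tested with a transcript, the median was 0.00 with or without such a 3′ UTR site. A match of letters says nothing of binding, and introns, where Quaking can act on splicing, were not searched.

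Transcripts that the annotation marks for NMD were frequent among the members, a property of the annotation rather than a measurement of these libraries. 21 of the 33 (63.6%) had at least 1 transcript of that biotype, and 11 of the 13 SR and Tra2 genes did (84.6%), against 29.3% of genes tested with a transcript. A retained-intron transcript was annotated for 72.7% of members and 59.6% of those genes. Values per gene add all isoforms together, so a shift between coding and NMD isoforms at an even total would not be seen here.

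The genes that modify or assist the members were likewise without a call. Of the kinases, phosphatases and importer of SR proteins, 13 of 14 were tested, 6 higher and 7 lower. 0 had an unadjusted p under 0.05, and the median log2 fold change was -0.01. Clk3, a kinase of the SR tail, was at 26.0, 23.2 and 21.5 RPKM in siNC and 20.99, 17.5 and 20.02 RPKM in siQk (log2 fold change -0.30, SE 0.11, unadjusted p = 0.0960 by edgeR), with no overlap. Srpk2 had a log2 fold change of -0.33 (SE 0.18) and Clk2 of 0.19 (SE 0.16), both with overlapping groups.

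The SR-related coactivators and exon junction proteins numbered 26, of which 13 were higher and 13 lower, with a median of 0.01 and 0 at unadjusted p under 0.05. Those with the smallest p were Magohb (0.32, SE 0.16), Pnn (0.22, SE 0.09) and Son (0.22, SE 0.12), given as log2 fold changes. In 4 of the 26 (Magoh, Magohb, Pnn and Rbm25) the groups did not overlap, each higher in siQk, where 5.35% of all genes did so. Only Magohb kept this after rescaling by TMM factors. The list of other hnRNP proteins held 21 genes, among them the import receptors Tnpo1 and Tnpo2, which are not hnRNP proteins and had negative values. 13 of the 21 were higher and the median was 0.03, or 13 of 19 and 0.06 without that pair, and 1 had an unadjusted p under 0.05. That gene was Rbmx, the X-linked hnRNP G protein that partners with Tra2 proteins, at 11.8, 10.9 and 12.9 RPKM in siNC and 15.0, 19.2 and 15.5 RPKM in siQk (log2 fold change 0.46, SE 0.15, unadjusted p = 0.0259 and adjusted p = 0.9998 by edgeR). Syncrip, the closest relative of Hnrnpr, had a log2 fold change of 0.26 (SE 0.06), and Khsrp of 0.22 (SE 0.17). Rbmx and Syncrip were the 2 of the 21 with non-overlapping groups, both higher in siQk, and both kept them after rescaling by TMM factors. Their 95% intervals left out 0, as did those of 3.39% of all genes tested.

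Of the U1, U2 and core snRNP proteins 24 were tested, 17 higher and 7 lower, with a median log2 fold change of 0.09. Snrpg, a ring protein of the snRNP core, was at 17.2, 14.6 and 8.27 RPKM in siNC and 22.1, 16.8 and 27.3 RPKM in siQk (log2 fold change 0.70, SE 0.36, unadjusted p = 0.0382 and adjusted p = 0.9998 by edgeR). Its groups overlapped, and siNC replicate 3 was the low library. Snrpe (0.43, SE 0.23) and Snrpd2 (0.34, SE 0.18) had the next smallest p, with non-overlapping groups and siNC replicate 3 lowest in each. In all, 4 of the 24 had non-overlapping groups, each higher in siQk (Snrpc, Snrpd2, Snrpd3 and Snrpe), where 5.35% of all genes did, and Snrpc and Snrpe kept them after rescaling by TMM factors. The list was not uniform, since Snrpa1, named after its values were seen, had a log2 fold change of -0.57 (SE 0.57) with siNC replicate 3 as its highest library.

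Markers of proliferation were mostly higher in siQk as well. 13 of 15 had a positive log2 fold change, their summed level was 931 to 1185 RPKM in siNC and 1108 to 1390 RPKM in siQk, and their median log2 fold change was 0.24, with Mcm3 (0.42, SE 0.13) and Pcna (0.37, SE 0.10) at unadjusted p under 0.05 and none called. Of the motor neuron and neuronal markers, 6 of the 7 tested had positive values, with a median of 0.24, and Isl1 ran from 4.75 to 4.83 RPKM in siNC and from 7.80 to 9.63 RPKM in siQk (log2 fold change 0.82, SE 0.10, unadjusted p = 0.00116 and adjusted p = 0.9998 by edgeR, not called). Oligodendrocyte markers summed to 4.49 to 6.70 RPKM over the 6 libraries. Of the fibroblast markers, Pdgfra was at 2.99 to 5.54 RPKM and the other 4 at or under 0.121 RPKM. Each astrocyte and microglia marker stayed at or under 0.218 RPKM. The part of these markers in the levels of the splicing genes was not tested. In bulk RNA, a change in the state of some cells and a change in each cell cannot be told apart.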

How the data were processed

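Per the labels and the methods of the study, poly-A mRNA libraries were made from NSC-34 cells with a TruSeq kit that keeps no strand, sequenced as read pairs, aligned by the authors with OLego, and quantified with Quantas. The submitters' processing notes name mm10, and the methods name the genome in more than one way. The deposited files give an expected count per gene, which need not be whole, and the authors' RPKM, which follows from that count, the summed exon length and the column total. Expected counts were rounded. Libraries were grouped by their treatment label and numbered by title.

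TMM scaling and the quasi-likelihood test of edgeR 4.0.16 (R 4.3.3) compared siQk with siNC over all 6 libraries, on genes with a mean log2 CPM above 0. Calls used the study's cutoffs, p under 0.01 and an adjusted p (Benjamini-Hochberg, 12665 genes) under 0.1. At these cutoffs the study reported L3hypdh, Daam2 and Snap23 as lower beside Qk, where the quasi-likelihood test here called Qk alone. The study names edgeR but not which of its tests was used. SE values and intervals rest on how log2 CPM after TMM (prior count 2) of that gene alone varied between libraries. The edgeR p rests on a spread pooled over genes, so an SE and the p printed beside it come from different estimates. The study describes 3 independent cultures and does not say whether siNC and siQk libraries of 1 number shared a culture. Same-numbered libraries deviated together with correlations of 0.21, 0.02 and -0.17, so the numbers were not taken as pairs. Scripts were tested on simulated data.

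Members, families, partner lists and alternatives were chosen with earlier results of these data known. Full values are given for members with non-overlapping groups, at unadjusted p under 0.05, with the smallest p of their family, or highest or lowest in their class. Up to 3 genes of smallest p per partner list are named with their log2 fold change. Other genes were named after their values were seen. Positions, biotypes and transcripts are from GENCODE mouse release M21 (GRCm38), which matched 33 of 33 members. Near-identical stretches were found with blastn. Exons of 7 members overlap those of another protein-coding gene (Hnrnpab, Hnrnph3, Hnrnpk, Hnrnpm, Hnrnpu, Hnrnpul2 and Srsf2), so their counts may hold reads of the neighbour. Alternatives were other scalings, filters and tests (DESeq2 1.42.0 among them), a replicate block and leaving out each library. Exon inclusion was not analysed here.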

Additional observations from a re-analysis of the deposited data

How the results depend on the processing

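Under every alternative run, 0 members were called. The count of members at unadjusted p under 0.05 was 0 to 1 when each library was left out, the 1 being Hnrpdl without siNC replicate 2 or without siQk replicate 1. With the replicate block, 1 gene was called in all, 20 members were higher and the smallest member p was 0.0638 by edgeR before adjustment, so the block changed no call. The legacy form of the test, added after seeing the data, also left 0 members called. All genes called numbered 5 with the edgeR exact test, 19 with DESeq2, and 0 to 1 when each library was left out, the 0 being without siNC replicate 1, where Qk had an adjusted p of 0.117 by edgeR. The log2 fold change of Qk ran from -3.19 to -2.67 when each library was left out. With column totals in place of TMM, the median of all genes rose to 0.03, 23 members were higher, and Hnrnpl turned to 0.012. Of the 17 members with full values, 4 changed sign when a library was left out, Hnrnpl (-0.094 to 0.11), Hnrnpm (-0.072 to 0.19), Hnrnpc (-0.18 to 0.059) and Srsf12 (-0.42 to 0.11), none of them called. Over all 33 members, 14 changed sign in at least 1 such fit and 19 did not, with the others that did between -0.24 (Hnrnpa0) and 0.26 (Hnrnpa1). The medians ran from 0.019 to 0.17 for the snRNP proteins and from -0.11 to 0.090 for the kinases, phosphatases and importer, with the class medians at -0.10 to 0.08 (SR and Tra2) and -0.00 to 0.13 (hnRNP). Non-overlapping members fell from 4 to 1 with TMM-rescaled RPKM. Where a value moved, the cause was not tested. Precision was taken from the spread between 3 libraries per group, and Srsf12 rests on 68 to 119 counts per library.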

Other observations

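Paralogs were also compared by their share of the pair's summed RPKM, for 9 pairs chosen after the tables were seen. Srsf5 held 61.5%, 62.8% and 62.8% of Srsf5 and Srsf6 together in siNC and 67.0%, 64.9% and 66.2% in siQk, with every siQk share above every siNC share (exact permutation test, two-sided, p = 0.1, the smallest 3 against 3 allows, and 0.72 after Benjamini-Hochberg adjustment over the 9 pairs). Both encode SR proteins of the same branch of the family. The shares of the other 8 pairs overlapped between groups, with exact permutation p from 0.3 to 1. Tra2a held 55.9% ± 2.25 of Tra2a and Tra2b in siNC and 57.8% ± 2.60 in siQk (SD, n = 3), and Hnrnph1 held 89.7% ± 2.55 of Hnrnph1 and Hnrnph2 in siNC and 91.1% ± 0.355 in siQk.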
